A study of Homo sapiens with 9 samples.

Results

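The transcription factors that drive epithelial-mesenchymal transition (EMT), the cadherins they act on and the partners that mark the mesenchymal state were followed as RNA in breast cancer cells depleted of LOXL2. The set holds 10 genes, chosen by name, of the 63657 genes in the deposited expression table: SNAI1, SNAI2, ZEB1, ZEB2, TWIST1, CDH1, CDH2, CDH11, VIM and CTNNB1. All the cells were MDA-MB-231, a widely used human cell line from a triple-negative breast carcinoma. The compared groups were cells labelled LOXL2 depletion, carrying a short hairpin RNA named shLOXL2, with 2 RNA-seq libraries, and cells labelled control, carrying shControl, also with 2 libraries. The labels name no hairpin sequence, clone or time after depletion, and they do not say whether the 2 libraries of a group came from separate cultures. The p-values below therefore measure the spread between these libraries, which may be technical. The series also holds 2 H3K4ox ChIP-seq libraries, 1 H3 ChIP-seq library and 2 ATAC-seq libraries, which were not used here.

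In EMT, epithelial cells lose E-cadherin, the adhesion protein encoded by CDH1, and gain a fibroblast-like form with vimentin filaments. The zinc-finger factors SNAI1 and SNAI2 and the ZEB1 and ZEB2 factors repress CDH1 by binding E-box motifs, and TWIST1 is a basic helix-loop-helix factor that drives the same programme. Cadherins hold neighbouring cells together through a cytoplasmic tail that binds beta-catenin (CTNNB1) or plakoglobin (JUP), and beta-catenin also acts in the nucleus with TCF and LEF factors. LOXL2, a lysyl oxidase-like enzyme, has been described as a partner of SNAI1 in repressing CDH1, and MDA-MB-231 is a standard model of the mesenchymal, E-cadherin-poor state.

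Expression was deposited as FPKM (fragments per kilobase and per mapped fragments of the library), a level corrected for transcript length and library size. The depth of each library is unknown, so no counting interval can be given. LOXL2 (ENSG00000134013), the targeted gene, had 15.2 and 12.1 FPKM in shLOXL2 cells and 85.5 and 84.5 FPKM in shControl cells, a remaining level of 16.1%. Its log2 change was -2.56 ± 0.12 (SE) with an adjusted p of 0.0124 by limma. Among the 16987 genes that averaged 1 FPKM or more over the 4 libraries, 1419 were higher and 1450 lower in shLOXL2 cells at an adjusted p below 0.05. Leaving out 1 library at a time cut these to between 18 and 220 higher and between 70 and 217 lower. The line's label was checked against its known markers: VIM ranked 11 among 11216 tested protein-coding genes by mean FPKM, ESR1 reached at most 0.0822 FPKM and PGR at most 0.0362 FPKM. ERBB2, which is not amplified in this line, had 29.8 and 26.1 FPKM in shLOXL2 cells and 27.6 and 26.4 FPKM in shControl cells.

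The ZEB factors stand in a known double-negative loop with the miR-200 family, microRNAs that target both ZEB transcripts and that mesenchymal cells lose. The mature sequences, taken from RefSeq with GRCh38.p14 coordinates, are shown with the seed, bases 2 to 8, in capitals, because the seed splits the family into a pair of target groups.
hsa-miR-200b-3p: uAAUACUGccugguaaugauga
hsa-miR-200c-3p: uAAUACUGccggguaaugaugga
hsa-miR-429: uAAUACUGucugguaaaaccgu
hsa-miR-141-3p: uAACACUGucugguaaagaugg
hsa-miR-200a-3p: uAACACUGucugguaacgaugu
The first 3 share the seed AAUACUG and the last 2 share AACACUG. The microRNA gene entries MIR200A, MIR200C, MIR141 and MIR429 and the host gene entry MIR200CHG were listed at 0 in all 4 libraries. MIR200B was listed at 0 in both shLOXL2 libraries, and at 0 and 6.07 FPKM in the shControl libraries. Such entries of a gene-level table do not measure the mature microRNAs.

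SNAI and ZEB proteins bind the E-box CAGGTG, which reads CACCTG on the opposite strand. Windows from 250 bases before to 50 bases after annotated starts were available for 5 of the 10 genes (ZEB1, ZEB2, CDH2, VIM and CTNNB1), 12 windows in all. Both spellings were searched, and 2 of the 7 ZEB1 windows held a match, against none of the other 5 windows. Over all 35116 RefSeq windows of this length, 20.6% held at least 1 match and 3.49% held at least 2. The member windows were thus not set apart from that background. The ZEB1 window with the most matches and the single ZEB2 window are shown, with the E-boxes in capitals, because both genes are CDH1 repressors that recognise this motif.
ZEB1, chr10:31318966-31319265, plus strand, GRCh38.p14: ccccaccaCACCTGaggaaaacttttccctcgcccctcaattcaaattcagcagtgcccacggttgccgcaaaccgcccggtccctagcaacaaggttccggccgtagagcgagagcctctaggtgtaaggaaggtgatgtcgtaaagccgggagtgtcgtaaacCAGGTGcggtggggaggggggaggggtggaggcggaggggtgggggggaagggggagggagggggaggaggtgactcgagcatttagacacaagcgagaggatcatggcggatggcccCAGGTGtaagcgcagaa
ZEB2, chr2:144520070-144520369, minus strand, GRCh38.p14: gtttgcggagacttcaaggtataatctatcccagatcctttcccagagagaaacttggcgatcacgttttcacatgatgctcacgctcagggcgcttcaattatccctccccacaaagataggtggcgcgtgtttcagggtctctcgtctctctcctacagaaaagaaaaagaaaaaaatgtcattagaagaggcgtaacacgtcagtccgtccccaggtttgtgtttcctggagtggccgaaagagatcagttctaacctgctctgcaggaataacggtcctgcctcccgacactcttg
This ZEB1 window held 3 matches and the ZEB2 window held 0, but 5 of the 7 ZEB1 windows also held 0, so no difference between the paralogues is shown. A match describes the letters of the window and shows no binding.

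Of the 10 genes, 7 passed the filter of a mean of 1 FPKM and were tested, and SNAI1, TWIST1 and CDH2 lay below it. In shLOXL2 cells 1 gene was called higher (CDH11), 1 was called lower (SNAI2) and 5 were not called. Over all tested genes 8.35% were called higher and 8.54% were called lower, 16.9% in all, and 20.8% of tested protein-coding genes were called in either direction. With so few members the count is not set apart from that background. The groups did not overlap for 5 of the 7 tested genes, against 64.6% of all tested genes. The libraries are from whole cultures, so fewer cells expressing a gene and less RNA of it per cell cannot be told apart.

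**Figure D1:**
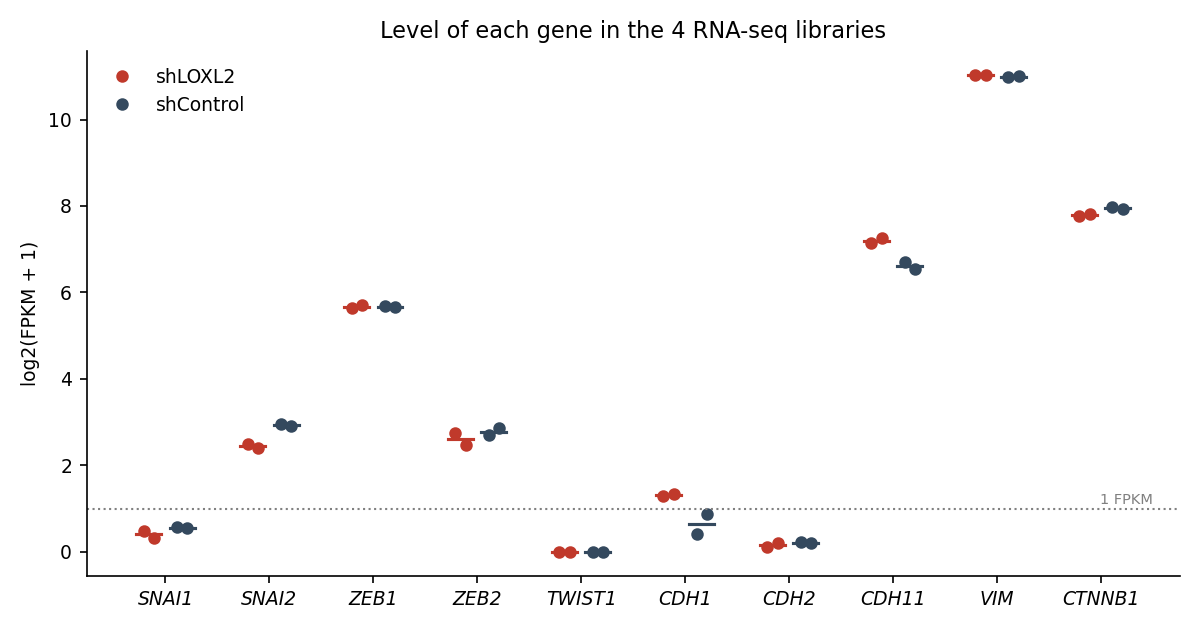
Level of each of the 10 genes as log2(FPKM + 1) in the shLOXL2 (left, red) and shControl (right, dark blue) RNA-seq libraries, with 1 point per library, short lines at the group means and a dotted line at 1 FPKM. CDH11 lies at 139 and 151 FPKM in shLOXL2 cells, above 103 and 91.9 FPKM in shControl cells, and SNAI2 lies lower in shLOXL2 cells.

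Among the transcription factors, SNAI2 was the gene that passed the test. SNAI2 (ENSG00000019549, chromosome 8), which encodes Slug, a repressor of CDH1, had 4.62 and 4.28 FPKM in shLOXL2 cells and 6.73 and 6.54 FPKM in shControl cells. Both shLOXL2 libraries lay below both shControl libraries. The means were 4.45 ± 0.243 FPKM in shLOXL2 cells and 6.63 ± 0.137 FPKM in shControl cells (SD, n = 2 each), a ratio of 0.671. On the log2(FPKM + 1) scale SNAI2 fell by 0.49 ± 0.06 (SE), with a 95% interval from -0.68 to -0.30 and an adjusted p of 0.0297 by limma. SNAI2 missed the threshold in limma when shControl replicate 1 (adjusted p 0.196), shControl replicate 2 (0.189), shLOXL2 replicate 1 (0.118) or shLOXL2 replicate 2 (0.124) was left out, while the log2 change stayed between -0.53 and -0.44.

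SNAI1 (ENSG00000124216, chromosome 20), which encodes Snail, was low and below the filter. It had 0.392 and 0.256 FPKM in shLOXL2 cells and 0.496 and 0.455 FPKM in shControl cells. The shLOXL2 libraries were the lower pair, at 68.1% of the shControl mean, and the groups did not overlap. An exact two-sided permutation test gave p = 0.333, the smallest that 2 libraries against 2 allow. Snail protein is controlled largely by its turnover, which RNA levels do not show. SNAI1P1, a retrocopy of SNAI1 that could share its reads, was listed at 0 and 0.0157 FPKM in shLOXL2 cells and at 0 in both shControl libraries. The ratio of SNAI2 to SNAI1 was 11.8 and 16.7 in shLOXL2 libraries and 13.6 and 14.4 in shControl libraries, so the groups overlapped.

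ZEB1 (ENSG00000148516, chromosome 10), the zinc-finger homeobox repressor of CDH1, had the highest level of the 5 transcription factors among the 10 genes, with 49.0 and 51.1 FPKM in shLOXL2 cells and 50.1 and 49.4 FPKM in shControl cells. The groups overlapped. Its log2 change was 0.01 ± 0.04 (SE), with a 95% interval from -0.11 to 0.12 and an adjusted p of 0.918 by limma. ZEB2 (ENSG00000169554, chromosome 2), its paralogue, had 5.76 and 4.57 FPKM in shLOXL2 cells and 5.49 and 6.29 FPKM in shControl cells. These groups also overlapped, with a log2 change of -0.16 ± 0.13 (SE), an interval from -0.56 to 0.23 and an adjusted p of 0.444 by limma. Per length, ZEB1 exceeded ZEB2 by 8.49-fold and 11.2-fold in the shLOXL2 libraries and by 9.14-fold and 7.87-fold in the shControl libraries. The antisense transcript ZEB1-AS1 had 3.999 and 3.55 FPKM in shLOXL2 cells and 4.06 and 4.48 FPKM in shControl cells (log2 change -0.14, adjusted p 0.357 by limma). ZEB2-AS1 had 0.207 and 0.123 FPKM in shLOXL2 cells and 0.272 and 0.0809 FPKM in shControl cells. The sources used here do not say whether the authors' counting used strand, so reads of a gene and its antisense partner may not be told apart.

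TWIST1 (ENSG00000122691, chromosome 7) was listed at 0 FPKM in each of the 4 libraries. EEF1A1, a translation elongation factor that every cell uses, was also listed at 0 in all 4. A listed 0 in this table can therefore be a failed estimate, and no level or change is given for TWIST1.

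In order of mean FPKM over the 4 libraries, the factors ran ZEB1, SNAI2, ZEB2 and SNAI1. SNAI2 and ZEB2 are neighbours in that order, ranking 9042 and 9046 of 11216 tested protein-coding genes. In shLOXL2 cells their libraries overlapped, with ZEB2 spanning 4.57 to 5.76 FPKM and SNAI2 spanning 4.28 to 4.62 FPKM. In shControl cells they did not overlap, and SNAI2 (6.73 and 6.54 FPKM) lay above ZEB2 (5.49 and 6.29 FPKM). Both genes lay below the protein-coding median of 18.8 FPKM. The genes nearest to SNAI2 in pattern, by Euclidean distance of centred log2 values over the 4 libraries, were NUTF2 at 0.0157, EXTL2 at 0.0212 and PREB at 0.0267. EXTL2, a glycosyltransferase, had 13.4 and 12.4 FPKM in shLOXL2 cells and 18.8 and 18.6 FPKM in shControl cells. NUTF2, a nuclear import factor for Ran, had 49.3 and 45.9 FPKM in shLOXL2 cells and 67.4 and 65.6 FPKM in shControl cells.

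Among the cadherins, CDH11 dominated the RNA in both groups and was the one called. CDH11 (ENSG00000140937, chromosome 16), which encodes the mesenchymal OB-cadherin, had 139 and 151 FPKM in shLOXL2 cells and 103 and 91.9 FPKM in shControl cells. Both shLOXL2 libraries lay above both shControl libraries. The means were 145 ± 8.25 FPKM in shLOXL2 cells and 97.7 ± 8.12 FPKM in shControl cells (SD, n = 2 each), a ratio of 1.49. CDH11 rose by 0.57 ± 0.08 (SE) on the log2 scale, with a 95% interval from 0.33 to 0.81 and an adjusted p of 0.0339 by limma. CDH11 missed the threshold in limma when shControl replicate 1 (adjusted p 0.168), shControl replicate 2 (0.183), shLOXL2 replicate 1 (0.136) or shLOXL2 replicate 2 (0.155) was left out, with log2 changes between 0.49 and 0.65. Without a filter on low values, both CDH11 (adjusted p 0.0755) and SNAI2 (0.0800) also missed the threshold, and CDH11 did so with a variance prior without a trend (0.0531).

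CDH11 is also expressed by fibroblasts, so a list of 10 fibroblast markers was measured beside it. Their summed level was 12.4 and 10.2 FPKM in shLOXL2 cells and 6.07 and 7.43 FPKM in shControl cells, and 8 of the 10 lay below the filter. Each of those 8 stayed at or below 0.439 FPKM in every library, the highest being COL3A1, and DCN and LUM reached at most 0.115 and 0.244 FPKM. COL1A1, the fibrillar collagen chain, was the list's 1 called gene of 2 tested, with 8.02 and 7.43 FPKM in shLOXL2 cells and 4.12 and 4.73 FPKM in shControl cells (log2 change 0.69 ± 0.09 SE, adjusted p 0.0287 by limma). PDGFRB, a growth factor receptor of fibroblasts and pericytes and the other tested gene, was not called, at 4.05 and 2.003 FPKM in shLOXL2 cells and 1.48 and 2.24 FPKM in shControl cells (log2 change 0.46 ± 0.33 SE, adjusted p 0.409 by limma). The part of fibroblast RNA in the CDH11 result was not tested. A list of 10 haematopoietic markers summed to 3.34 and 3.84 FPKM in shLOXL2 cells and 4.137 and 4.005 FPKM in shControl cells, with 0 of its 2 tested genes called by limma and 0 at an unadjusted p below 0.05.

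CDH1 (ENSG00000039068, chromosome 16), the gene of E-cadherin, had 1.43 and 1.51 FPKM in shLOXL2 cells and 0.339 and 0.837 FPKM in shControl cells. Both shLOXL2 libraries lay above both shControl libraries, and the shControl pair was the more spread. The means were 1.47 ± 0.0593 FPKM in shLOXL2 cells and 0.588 ± 0.352 FPKM in shControl cells (SD, n = 2 each). Its overall mean of 1.03 FPKM just passed the filter, and it did so through the shLOXL2 libraries alone. The log2 change of 0.65 ± 0.23 (SE) had a 95% interval from -0.02 to 1.33 and did not pass the test, with an adjusted p of 0.148 by limma. When protein-coding genes alone were fitted, it passed with an adjusted p of 0.0208. At this level the size depends on the pseudocount, and the log2 change was 1.29 with 0.1 FPKM added and 0.21 with 5 FPKM added. By level CDH1 ranked 11192 of 11216 tested protein-coding genes.

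CDH2 (ENSG00000170558, chromosome 18), the gene of N-cadherin, the classical partner of E-cadherin in the cadherin switch of EMT, was low and below the filter. It had 0.0738 and 0.145 FPKM in shLOXL2 cells and 0.167 and 0.145 FPKM in shControl cells. The ratio of CDH2 to CDH1, as log2 of values plus 1 FPKM, was -1.18 and -1.13 in shLOXL2 libraries and -0.20 and -0.68 in shControl libraries. The groups did not overlap, and the difference of -0.71 reached the smallest p that the exact two-sided permutation test allows, 0.333. Since CDH2 was so low, the ratio follows CDH1, and its size is set by the pseudocount: the difference was -1.60 with 0.1 FPKM added and -0.23 with 5 FPKM added. Without shControl replicate 1 it was -0.47.

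Summed over 23 cadherin genes, the level was 155 and 166 FPKM in shLOXL2 cells and 117 and 106 FPKM in shControl cells. CDH11 made up 89.7% and 91.0% of that sum in shLOXL2 libraries and 88.6% and 86.8% in shControl libraries. CDH4 followed with 4.63% and 4.24% in shLOXL2 libraries and 5.46% and 6.41% in shControl libraries. CDH1 contributed 0.918% and 0.910% in shLOXL2 libraries and 0.290% and 0.791% in shControl libraries. In all, 18 of the 23 cadherins lay below 1 FPKM. Of the 20 cadherins other than the 3 described above, 3 were tested, and limma called 0 of them, with 0 at an unadjusted p below 0.05.

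**Figure D2:**
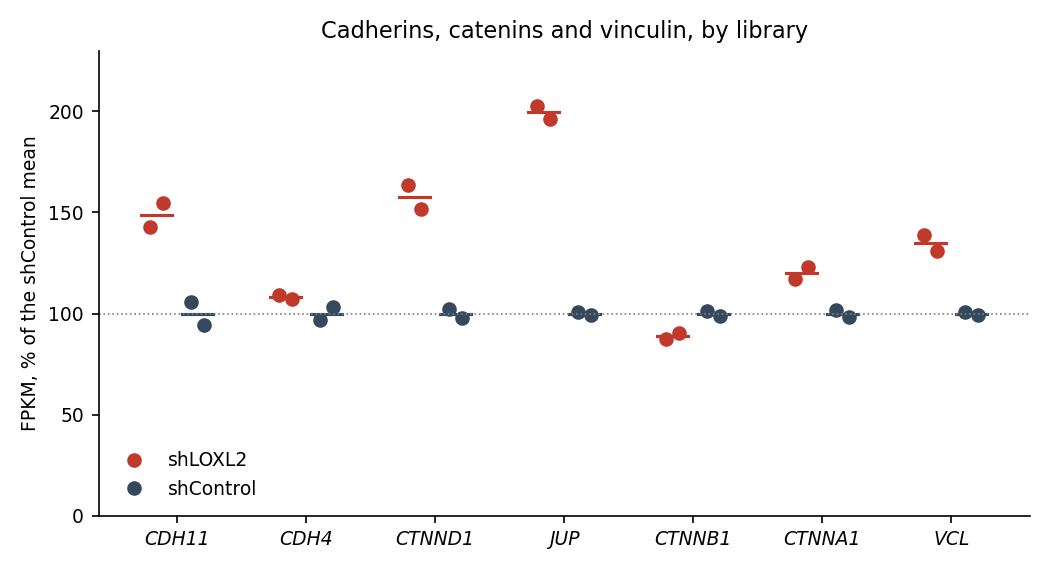
FPKM of 2 cadherins, 4 catenins and vinculin in each library as a percentage of the gene's shControl mean, shLOXL2 (red) left of shControl (dark blue), with short lines at the group means. JUP and CTNND1 lie higher in shLOXL2 cells, whereas CTNNB1, at 215.6 and 222 FPKM in shLOXL2 cells against 249 and 244 FPKM in shControl cells, lies lower. CTNNAL1, which was called lower, is not drawn.

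At the cytoplasmic face of the junction, 4 genes were called higher in shLOXL2 cells and 1 lower, while CTNNB1 was not called. CTNNB1 (ENSG00000168036, chromosome 3), the gene of beta-catenin, had 215.6 and 222 FPKM in shLOXL2 cells and 249 and 244 FPKM in shControl cells. The shLOXL2 libraries were both lower, with means of 219 ± 4.84 FPKM in shLOXL2 cells and 246.5 ± 3.85 FPKM in shControl cells (SD, n = 2 each). The log2 change of -0.17 ± 0.03 (SE) had a 95% interval from -0.27 to -0.07 and an adjusted p of 0.0580 by limma, just outside the threshold. It passed with quantile normalization (-0.22, adjusted p 0.0282) and when protein-coding genes alone were fitted (adjusted p 0.0177).

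Of 14 tested catenins and adherens junction partners, 4 were called higher and 1 lower. Positive log2 changes numbered 7 and negative ones 7, with a median of 0.0029 against -0.0041 over all tested genes. For comparison with this and the later lists, 8.35% of all tested genes were called higher and 8.54% lower. JUP, plakoglobin, which can take the place of beta-catenin on a cadherin tail, had 39.8 and 38.5 FPKM in shLOXL2 cells and 19.8 and 19.4 FPKM in shControl cells (log2 change 0.96 ± 0.04 SE, adjusted p 0.0116 by limma). CTNND1, the catenin that binds the membrane-near part of the cadherin tail and slows its internalisation, had 73.5 and 68.3 FPKM in shLOXL2 cells and 45.8 and 44.0 FPKM in shControl cells (0.65 ± 0.05, adjusted p 0.0171). VCL, vinculin, rose by 0.43 on the log2 scale and CTNNA1, alpha-catenin, by 0.26, with adjusted p-values of 0.0213 and 0.0423 by limma. CTNNA1 missed the threshold in limma with quantile normalization (adjusted p 0.0584), no filter on low values (0.0964) and a variance prior without a trend (0.0708). CTNNAL1, a relative of alpha-catenin, was named after its values were seen, as the 1 gene called lower. It had 94.7 and 97.7 FPKM in shLOXL2 cells and 111 and 116 FPKM in shControl cells. The ratio of JUP to CTNNB1, also chosen after values were seen, was 0.184 and 0.173 in shLOXL2 libraries and 0.0794 and 0.0797 in shControl libraries.

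Around beta-catenin's degradation and nuclear action, 16 genes were tested, of which 4 were called higher and 2 lower (median log2 change -0.09). CTNNBIP1, an inhibitor that keeps beta-catenin from TCF factors, had 82.7 and 80.9 FPKM in shLOXL2 cells and 49.8 and 48.4 FPKM in shControl cells (log2 change 0.72 ± 0.03 SE, adjusted p 0.0124 by limma). LEF1, a DNA-binding partner of beta-catenin and itself a target, had 4.36 and 4.84 FPKM in shLOXL2 cells and 8.43 and 9.71 FPKM in shControl cells (-0.84 ± 0.10, adjusted p 0.0246). CSNK1A1, the kinase that primes beta-catenin for degradation, rose by 0.30 and BCL9L, a nuclear coactivator, rose by 0.49, with adjusted p-values of 0.0334 and 0.0344 by limma. TCF7L2, another TCF factor, named after its values were seen, had 16.5 and 13.6 FPKM in shLOXL2 cells and 7.99 and 5.83 FPKM in shControl cells (1.03 ± 0.19, adjusted p 0.0482 by limma).

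Of 9 tested targets of beta-catenin, 1 was called higher and 2 lower, LEF1 among them (median log2 change -0.12). CD44, the hyaluronan receptor, had 349 and 340 FPKM in shLOXL2 cells and 457 and 447 FPKM in shControl cells (log2 change -0.39 ± 0.03 SE, adjusted p 0.0172 by limma). TNFRSF19 had 4.28 and 4.35 FPKM in shLOXL2 cells and 2.59 and 2.58 FPKM in shControl cells (0.57 ± 0.07, adjusted p 0.0272). AXIN2, a commonly used readout of the pathway, was not called, at 2.379 and 2.002 FPKM in shLOXL2 cells and 2.21 and 2.64 FPKM in shControl cells. CCND1, cyclin D1, was not called either, at 315 FPKM in both shLOXL2 libraries and at 321 and 328 FPKM in the shControl libraries. SP5, also not called, had 2.14 and 1.87 FPKM in shLOXL2 cells and 4.38 and 3.45 FPKM in shControl cells. Its log2 change was -0.70, with an adjusted p of 0.0558 by limma. AXIN2, CCND1 and SP5 were named outside the rule given below. Of the 9 tested targets, 2 had a positive log2 change and 7 a negative one.

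VIM (ENSG00000026025, chromosome 10), the intermediate filament protein that marks mesenchymal cells, had 2104 and 2081 FPKM in shLOXL2 cells and 2011 and 2053 FPKM in shControl cells. The shLOXL2 libraries were both higher, by little, with means of 2092 ± 16.4 FPKM in shLOXL2 cells and 2032 ± 30.0 FPKM in shControl cells (SD, n = 2 each). The log2 change of 0.04 ± 0.03 (SE) had a 95% interval from -0.06 to 0.14 and an adjusted p of 0.437 by limma. Quantile normalization turned its sign (-0.10, adjusted p 0.145 by limma). FPKM summed over all genes was 1.33e+06 and 1.37e+06 in shLOXL2 libraries and 1.24e+06 and 1.22e+06 in shControl libraries. The part of these sums in VIM's small difference was not tested. The antisense transcript VIM-AS1 had 9.36 and 9.92 FPKM in shLOXL2 cells and 10.7 and 12.2 FPKM in shControl cells (-0.22, adjusted p 0.167 by limma). The list drawn as vimentin partners held other intermediate filament genes, nuclear lamins and linkers such as filamin A, not only genes whose products assemble with vimentin. Of its 9 tested genes, 3 were called higher and 0 lower by limma, with 1 lower at an unadjusted p below 0.05. LMNA, the nuclear lamin, had 1248 and 1142 FPKM in shLOXL2 cells and 696 and 725 FPKM in shControl cells (log2 change 0.75 ± 0.06 SE, adjusted p 0.0166 by limma). NES, nestin, rose by 0.41 and FLNA, the actin crosslinker filamin A, by 0.45, with adjusted p-values of 0.0304 and 0.0423 by limma.

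**Figure D3:**
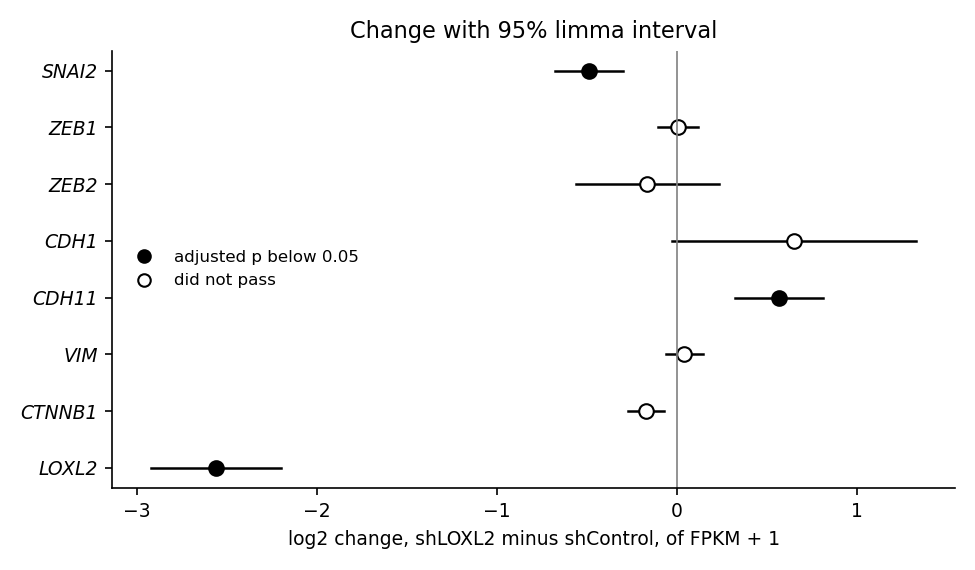
Log2 change of the 7 tested genes and of LOXL2, shLOXL2 minus shControl, on the log2(FPKM + 1) scale, with 95% intervals from limma as horizontal lines and filled points at an adjusted p below 0.05. CDH11 (0.57) and SNAI2 (-0.49) are filled, as is LOXL2 (-2.56), and the interval of CDH1 reached from -0.02 to 1.33.

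Other transcription factors of EMT went both ways. Of 21 listed, 11 were tested, 2 were called higher and 3 lower, and the median log2 change was -0.25. TCF12, an E-protein that pairs with TWIST1, had 34.2 and 33.5 FPKM in shLOXL2 cells and 53.8 and 55.7 FPKM in shControl cells (log2 change -0.68 ± 0.04 SE, adjusted p 0.0131 by limma). ID3, an inhibitor of E-proteins, had 12.4 and 13.4 FPKM in shLOXL2 cells and 29.7 and 22.3 FPKM in shControl cells (-0.95 ± 0.16, adjusted p 0.0424). FOXQ1, a forkhead factor that represses CDH1, had 16.7 and 15.7 FPKM in shLOXL2 cells and 9.81 and 10.7 FPKM in shControl cells (0.62 ± 0.06, adjusted p 0.0223). HMGA2, a chromatin protein that can induce SNAI1, was named after its values were seen, and had 35.0 and 29.2 FPKM in shLOXL2 cells and 21.4 and 19.97 FPKM in shControl cells (0.61, adjusted p 0.0471 by limma).

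Of 28 tested corepressors and turnover factors of SNAI1, 3 were called higher and 6 lower, with the targeted LOXL2 among those that fell. The median log2 change was 0.027 without LOXL2. HDAC1, a deacetylase recruited by Snail, had 185 and 188 FPKM in shLOXL2 cells and 110 and 106 FPKM in shControl cells (log2 change 0.79 ± 0.03 SE, adjusted p 0.0124 by limma). PRMT5, an arginine methyltransferase that joins Snail through AJUBA, had 169.5 and 189 FPKM in shLOXL2 cells and 408 and 389 FPKM in shControl cells (-1.15 ± 0.07, adjusted p 0.0131). AJUBA itself, the LIM adaptor, had 106 and 107 FPKM in shLOXL2 cells and 79.6 and 80.8 FPKM in shControl cells (0.40 ± 0.03, adjusted p 0.0146). The others called, named after their values were seen, were the phosphatase CTDSP1, which was higher, and the Polycomb subunits EZH2 and SUZ12, the DNA methyltransferase DNMT1 and the kinase PAK1, which were lower. EZH2, the catalytic subunit, had 25.3 and 26.1 FPKM in shLOXL2 cells and 33.3 and 32.8 FPKM in shControl cells. DNMT1 had 230.4 and 215.5 FPKM in shLOXL2 cells and 288 and 283 FPKM in shControl cells.

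Epithelial genes known to be repressed by SNAI or ZEB factors were mostly near or below the filter, and 15 of the 27 listed were not tested. Of the 12 tested, 5 were called higher and 1 lower, with a median log2 change of 0.37. Positive changes numbered 9 and negative ones 3. Over all tested genes 8.35% were called higher and 8.54% lower, and the list was not tested as a set. In both groups the mean of each of the 12 was above 1 FPKM. CLDN4, a tight junction claudin, had 37.1 and 38.9 FPKM in shLOXL2 cells and 22.1 and 22.5 FPKM in shControl cells (log2 change 0.74 ± 0.04 SE, adjusted p 0.0131 by limma). CLDN7 had 30.8 and 31.0 FPKM in shLOXL2 cells and 23.1 and 21.0 FPKM in shControl cells (0.47 ± 0.06, adjusted p 0.0277). KRT8, named after its values were seen, was also higher, and its partner KRT18, a keratin of simple epithelia, rose by 0.36, and PKP3, the desmosomal plakophilin, by 0.59, with adjusted p-values of 0.0239 and 0.0372 by limma. EPCAM, an epithelial adhesion protein, was named after its values were seen, as the 1 gene called lower. It had 4.52 and 5.07 FPKM in shLOXL2 cells and 6.85 and 6.69 FPKM in shControl cells (-0.42, adjusted p 0.0443 by limma). Of 6 markers of the claudin-low, mesenchymal class of this line, CD44 was called lower and MSN and CAV1 were called higher, at log2 changes of 0.24 and 0.21 with adjusted p-values of 0.0246 and 0.0430 by limma.

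**Figure D4:**
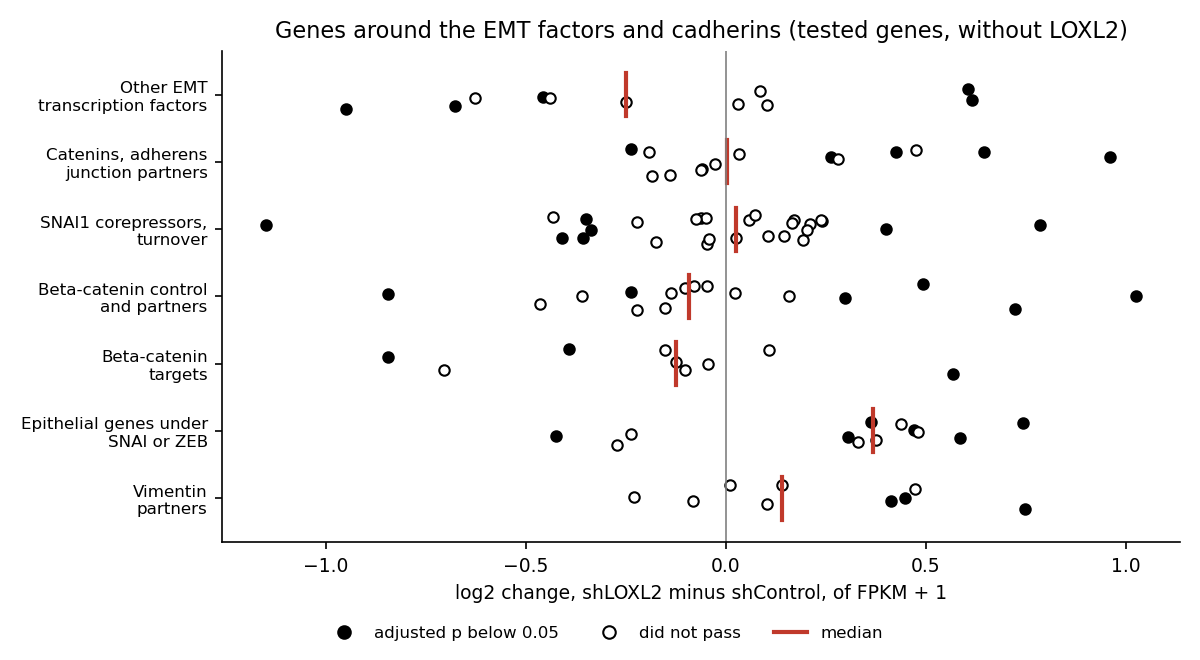
Log2 change, shLOXL2 minus shControl, of each tested gene in 7 lists around the 10 genes, with 1 point per gene, filled at an adjusted p below 0.05, and a red line at each list's median. LOXL2 is left out. The medians of the other EMT factors (-0.25) and of the epithelial genes (0.37) lie on opposite sides of 0, with called genes on both sides in each list.

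All 27 list genes chosen by the rule kept their direction when any 1 library was left out. Such a fit leaves 1 library in a group. Most calls over all tested genes were lost in it, and those of the list genes as well.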

How the data were processed

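RNA-seq of MDA-MB-231 cells was analysed from the gene table of FPKM values deposited by the authors. The submitters' processing notes name Bowtie, Cufflinks and the build GRCh37, with no version and no role for each. Columns were assigned to the 4 libraries by their names, with replicate numbers as the columns give them. The authors' group means and fold changes were not used. Peaks of the ChIP-seq and ATAC-seq libraries were not analysed here, because no GRCh37 annotation was used.

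Values were taken as log2(FPKM + 1), which understates changes of low genes. Genes averaging 1 FPKM or more across the 4 libraries, 16987 in number, entered limma 3.58.1 in R 4.3.3 (two-sided moderated test, variance prior with a trend on intensity, Benjamini-Hochberg adjustment over all tested genes, threshold 0.05). Single ratios were compared by an exact two-sided permutation test. The script was tested on simulated data. Symbols were matched for 39694 of 63657 identifiers. Sequences came from RefSeq tables on GRCh38.p14. Tables and motifs were handled in Python 3.11.15.

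The 10 genes and all gene lists were chosen with earlier results of these data known. Named genes were the 10, LOXL2, at most the 4 called genes of smallest p per list, transcripts sharing a locus with the 10, and the 3 genes nearest in pattern to the called gene of smallest p. 1 gene that the rule names is not reported here. Alternatives were other pseudocounts, filters, scalings and variance priors, protein-coding genes alone, a replicate block, and leaving out each library.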

Additional observations from a re-analysis of the deposited data

How the results depend on the processing

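CDH11 and SNAI2 kept their direction under every alternative run. Against 1419 genes higher and 1450 lower in shLOXL2 cells, no filter on low values gave 601 and 542, a variance prior without a trend gave 926 higher, and protein-coding genes alone gave 2136 and 2178. Of the 10 genes, no filter left 0 called higher and 0 called lower by limma. At an unadjusted p below 0.05 by limma lay 4 of 9, against 7469 of all 36224 genes tested in that setting. The prior without a trend left 0 higher and 1 lower. Here 4 of 7 lay at an unadjusted p below 0.05 by limma, against 5917 of all 16987 tested genes. Quantile normalization gave 2 lower, and protein-coding genes alone gave 2 higher and 2 lower. In both of these settings CTNNB1 joined SNAI2 as called lower. With protein-coding genes alone CDH1 joined CDH11 as called higher, although CDH1 passed the filter through the shLOXL2 libraries alone. Leaving out 1 library left between 18 and 220 genes higher and between 70 and 217 lower, with 0 of the 10 genes called in either direction (3 or 4 at an unadjusted p below 0.05). LOXL2's log2 change then lay between -2.72 and -2.41, and its adjusted p was 0.157 without shControl replicate 1 and 0.154 without shControl replicate 2. ZEB1's log2 change was -0.0034 with quantile normalization and ran between -0.024 (without shLOXL2 replicate 2) and 0.038 (without shLOXL2 replicate 1) when 1 library was left out, and VIM's was -0.098 with quantile normalization. The cause of these shifts was not tested. CDH1 had no value with a filter at 5 FPKM. The difference in the CDH2 to CDH1 ratio was -1.60 with 0.1 FPKM added, -0.23 with 5 FPKM added, and between -0.96 and -0.47 without 1 library. Of the 27 list genes named, 12 stayed called with no filter, 18 with the prior without a trend and 24 with quantile normalization. Of all 2869 genes called in the main fit, 1081, 1794 and 2653 stayed called in these settings, so the list genes were not set apart. Deviations of same-numbered libraries correlated at -0.0013, so no shift shared by replicate number was seen. This correlation cannot show whether same-numbered libraries were prepared together. With the replicate block, limma called 0 genes higher and 0 lower (5519 at an unadjusted p below 0.05), 0 of the 10 genes in either direction (3 at an unadjusted p below 0.05), 0 of the 27 list genes (adjusted p-values between 0.0713 and 0.106), and LOXL2 had a log2 change of -2.56 with an adjusted p of 0.0713.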
